A study of Arabidopsis thaliana with 10 samples.

Results

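The comparison described here asks by how much the transcriptional response to 24 h of cold differed between the Arabidopsis thaliana ecotypes Col and C24. For every probe set the change from room temperature to 24 h of cold in Col was subtracted from the same change in C24, so a positive value means that the transcript rose more, or fell less, in C24. The contrast used 8 of the 10 arrays of the series and all 22746 of 22810 probe sets that are not controls, and no probe set was chosen for its values. Its groups were Col seedlings at room temperature, Col seedlings after 24 h at 4 °C, C24 seedlings at room temperature and C24 seedlings after 24 h at 4 °C, with 2 arrays each. The other 2 arrays, C24 after 3 h at 4 °C, entered only the estimate of spread, and their values are given beside the others where they help to place a group. All plants were unmodified natural accessions grown on plates in a chamber set to 23 and 18 °C. None of the sources used here gives the room temperature itself, the time of day of harvest or the number of plants behind an array. The sample labels name leaf tissue at an age of 20 days. The series text instead gives 14-day seedlings and calls the replicates biological.

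Plants from temperate climates become more freezing tolerant when they are held at low, non-freezing temperature, a process called cold acclimation. CBF transcription factors switch on COR and LEA genes, whose small hydrophilic proteins protect membranes, while sugars and anthocyanins accumulate and growth slows. The circadian clock gates much of this response, and natural accessions differ in it. Col is the reference accession, and C24 is known from other work as an accession of lower freezing tolerance.

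The values are RMA signals on the log2 scale, deposited by the authors, and changes are given as log2 differences estimated in one limma fit to all 10 arrays. A probe set was called where its Benjamini-Hochberg adjusted p, taken over all 22746 probe sets, was below 0.05. Replicate arrays lay close together, with median SDs per probe set of 0.0534 to 0.0695 in the 5 groups. The median SE was 0.0878 between 2 groups and 0.124 for the contrast of both responses, and the precision is limited by having 2 arrays per group. Signals below the lower quartile of an array, which lay at 4.48 to 4.52, are called the background range because no detection call was used.

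Several measures of the whole arrays moved with ecotype or group. The mean signal of 3 root markers (PYK10, EXPA18 and EXPA7) was 8.69 to 8.93 in Col at room temperature and 8.10 to 8.11 in Col after 24 h. It was 6.78 to 6.85 in C24 at room temperature, 7.86 to 7.89 after 3 h and 7.39 to 7.40 after 24 h, so the C24 room temperature arrays were the lowest of the 5 groups and cold moved the markers in opposite directions. The photosystem II antenna gene LHCB4.1, the one leaf marker with a named probe set, lay between 13.56 and 14.04 on all arrays, near the highest signal of any probe set (14.5). GAPDH control signal at the 3' end minus that at the 5' end, a sign of RNA integrity, was 0.493 to 0.864 in C24 at room temperature and 0.0947 to 0.314 in Col at room temperature, against 0.374 to 0.389 and 0.108 to 0.175 after 24 h. Poly-A spike-in controls stood at 6.53 to 6.83 on the 6 C24 arrays and at 5.53 to 5.57 on the 4 Col arrays, with a difference of responses of -0.19. For the hybridisation controls that difference was -0.29. When fitted with the others, 16 of the 64 control probe sets passed the threshold in the difference, where 39.5% of the 22746 others were called in the main fit. The part of root RNA, RNA integrity and the shifts of the control probe sets in the results below was not tested, and neither was sequence mismatch of C24 transcripts to the array's probes. In bulk RNA, fewer cells of a type and less RNA per cell cannot be told apart.

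The responses of the ecotypes differed widely. The limma fit called 8981 of 22746 probe sets (39.5%), of which 4636 (20.4%) had the higher response in C24 and 4345 (19.1%) the lower. A difference of at least 2-fold was reached by 2554 (11.2%), 1356 higher and 1198 lower, and one of at least 8-fold by 68 higher and 106 lower. The median absolute difference among called probe sets was 0.67, and the median difference over all probe sets was -0.03. The array-by-array responses of the ecotypes did not overlap in 8980 of the 8981, where 57.2% of all probe sets showed no overlap. For reference, 24 h of cold itself changed 49.1% of probe sets in Col and 49.5% in C24, comparisons that share arrays with the difference. The largest absolute difference, 8.20, belonged to a probe set with no gene name, and 16 of the 30 largest rises and 19 of the 30 largest falls had no single gene, so the genes named below are a part of those that moved. The gene lists below hold 1 probe set per gene, whereas the shares given beside them are over all probe sets. With 1 probe set per gene, 2297 of 13350 genes were higher and 2311 lower, which are smaller shares. The lists were chosen with earlier results of these data known, so their counts may partly reflect that choice.

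**Figure D1:**
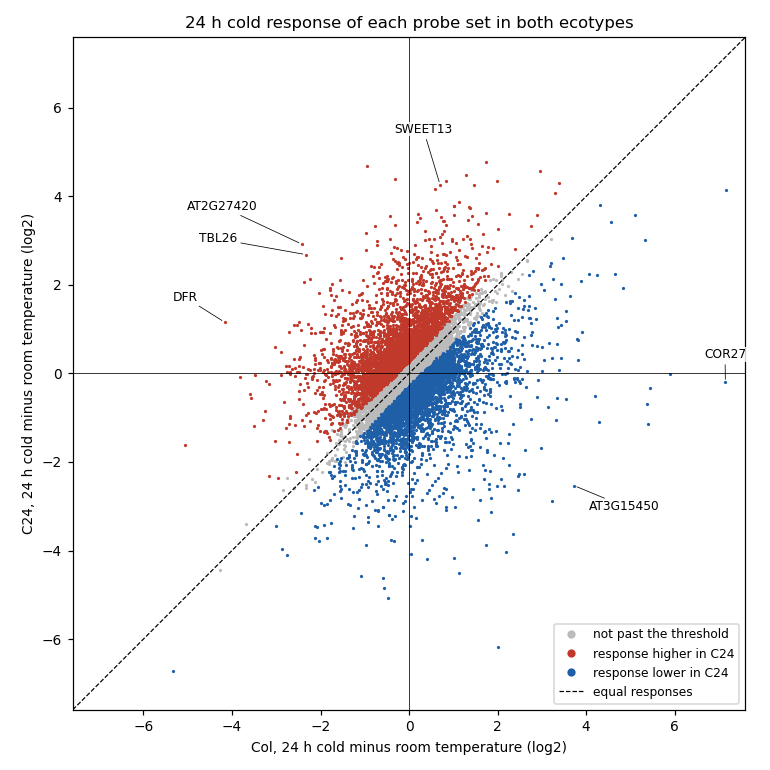
Each point is 1 probe set, with its change after 24 h of cold in Col on the horizontal axis and in C24 on the vertical axis (log2, means of 2 arrays per group). Red points were called higher and blue points lower in C24 (39.5% of 22746), the dashed line marks equal responses, and DFR and AT3G15450 lie far out in the quadrants where the ecotypes moved in opposite directions.

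The called probe sets fell into distinct patterns. In 1758 of them (19.6%) cold moved the transcript in opposite directions in the ecotypes, each response passing the threshold on its own, with 965 rising in C24 and falling in Col and 793 the reverse. C24 alone responded in 2372 (26.4%) and Col alone in 2174 (24.2%). Both responded in the same direction in the rest of the responding probe sets, 1644 (18.3%) with the larger change in C24 and 842 (9.38%) with the larger change in Col. In 191 (2.13%) neither response passed. Among the 2554 differences of at least 2-fold the opposite pattern was the most frequent class, with 1117 probe sets (43.7%), followed by C24 alone with 456 (17.9%), the same direction with the larger change in C24 with 406 (15.9%), Col alone with 394 (15.4%) and the same direction with the larger change in Col with 181 (7.09%). Of the 7620 probe sets called in both ecotypes 5862 moved in the same direction, and 2486 of these also differed in size. Since responses that pass in opposite directions are bound to lie apart, the call of all 1758 opposite probe sets is partly set by construction.

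**Figure D2:**
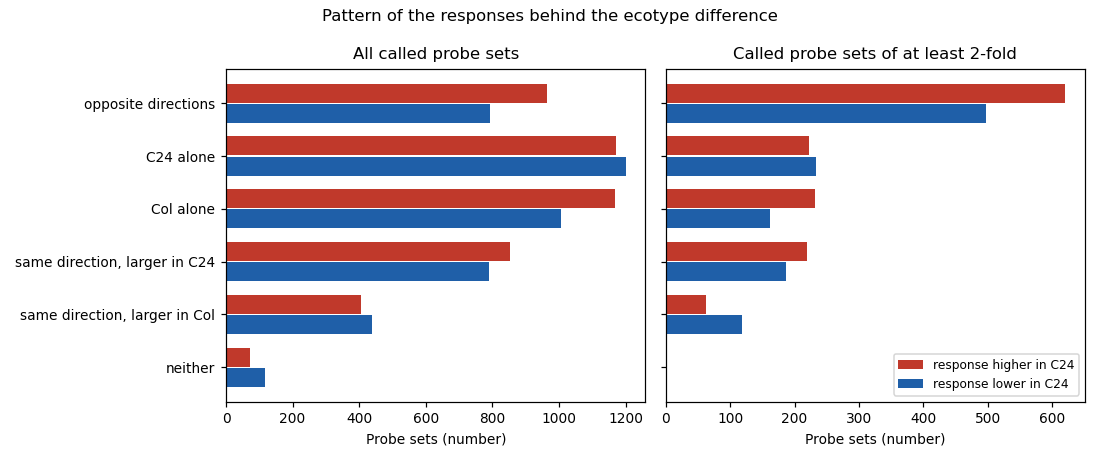
Bars count called probe sets by the pattern of the responses in both ecotypes, for all 8981 called probe sets (left) and for the 2554 of at least 2-fold (right), in red where the response was higher in C24 and in blue where it was lower. Opposite directions is the longest pair of bars on the right (620 higher and 497 lower) but not on the left (965 and 793).

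A difference between responses equals the change of the ecotype gap with cold, so it can come from a gap at room temperature, after cold, or both. C24 and Col differed at room temperature in 56.0% of all probe sets and after 24 h in 49.3%. Among the 8981 called probe sets the gap was larger at room temperature in 5353 (59.6%), and among those of at least 2-fold in 1624 (63.6%). The same share over all probe sets was not counted, and both gaps are terms of the difference by which these probe sets were called. The median absolute gap of the called probe sets was 0.51 at room temperature and 0.40 after 24 h, and for those of at least 2-fold it was 1.09 and 0.73. Of the probe sets with the higher response in C24, 3038 started lower in C24 at room temperature and 2439 ended higher in C24 after 24 h. Of those with the lower response, 3071 started higher in C24 and 2150 ended lower. The ecotypes exchanged places, past the threshold at both temperatures, in 1877 probe sets, whereas 2661 lay apart only at room temperature and 1866 only after 24 h by the same calls.

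**Figure D3:**
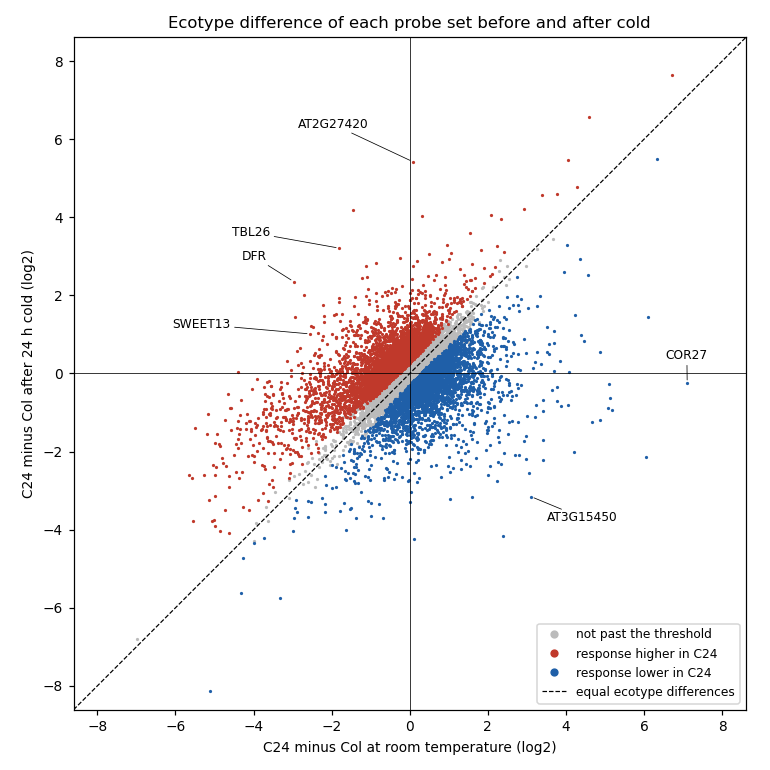
Each point is 1 probe set, with the C24 minus Col difference at room temperature on the horizontal axis and after 24 h of cold on the vertical axis (log2, means of 2 arrays per group). Called probe sets lie off the dashed line of equal differences, and COR27, 7.10 higher in C24 at room temperature and -0.24 after 24 h, lies near the horizontal zero line.

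In the 2554 probe sets of at least 2-fold it was asked which group stood alone, meaning that its mean lay farther from the nearest other mean than the range of the other 3 groups, a definition chosen after the data were seen. C24 at room temperature stood alone in 584 (22.9%), above the others in 304 and below them in 280. Col at room temperature stood alone in 461 (18.1%), C24 after 24 h in 320 (12.5%), Col after 24 h in 267 (10.5%) and no group in 922 (36.1%). In 435 of the 584 the C24 arrays after 3 h of cold already lay nearer to the other 3 groups than to C24 at room temperature. Of the 461 in which Col at room temperature stood alone, the C24 3 h arrays lay with the other groups in 356.

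COR27 had the largest difference of any named gene. This cold-regulated gene with evening expression, which acts on the clock, read 3.70 and 3.96 in Col at room temperature, in the background range, and 10.93 and 11.02 in Col after 24 h. In C24 it read 10.93 on both arrays at room temperature, 10.90 and 10.88 after 3 h, and 10.74 and 10.72 after 24 h. It thus stood as high in C24 before cold as in Col after cold, and the groups of Col do not overlap. The difference of responses was -7.35 ± 0.12 (SE, limma adjusted p = 3.86e-11), and -6.67 with readings in the background range raised to the array's lower quartile, a setting chosen after the data were seen. AT4G33980 was likewise low only in Col at room temperature, with 4.64 and 4.82 rising to 10.18 and 10.15 in Col (difference -5.77 ± 0.11). In C24 it read 9.82 and 9.90 at room temperature, 10.997 and 10.930 after 3 h and 9.56 and 9.49 after 24 h. Unlike COR27, it thus rose in C24 at 3 h and then fell below its start. GI, a clock protein that also promotes flowering, rose in both ecotypes, from 8.29 and 8.11 to 10.45 and 10.47 in Col and from 9.60 and 9.57 to 10.55 and 10.64 in C24 (difference -1.25 ± 0.11). All 3 measured members of the evening list thus had the lower response in C24, beside 19.1% of all probe sets. Their median was -5.77 against -0.03 over all probe sets, and after 24 h the ecotypes stood within 0.64 of each other in all 3. This list was chosen with earlier results of these data known, and COR27 and AT4G33980 are among the 15 largest named falls. Its count and median are thus partly set by the choice. The unstated time of harvest, on which the level of evening genes depends, was not tested for its part.

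The list of COR and LEA genes for freezing tolerance had 8 measured members, COR27 among them, of which 5 had the lower and 2 the higher response in C24 (median -1.14), beside 19.1% and 20.4% of all probe sets. COR15B, a chloroplast protein that protects membranes during freezing, read 10.09 and 10.13 in Col at room temperature and 13.62 and 13.68 after 24 h, against 12.28 and 12.17, then 13.63 and 13.64 in C24. The C24 level before cold was 2.12 above that of Col, the cold levels were -0.01 apart, and the difference of responses was -2.13 ± 0.10 (adjusted p = 2.78e-08). COR15A, its close homologue, behaved alike with a difference of -0.92 ± 0.11 and ended at 14.08 and 14.12 in Col and at 14.17 and 14.07 in C24. These readings lie near the highest signal on any array (14.5), and neither a ceiling of the scale nor cross-hybridisation between the COR15 probe sets was tested.

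The dehydrins COR47 and LTI30 rose in both ecotypes but differed in which response was larger. COR47 started alike in both ecotypes, at 11.52 and 11.44 in Col and 11.29 and 11.26 in C24, but reached 14.29 and 14.35 in Col and only 12.76 and 12.78 in C24 (difference -1.35 ± 0.10). LTI30 rose from 11.20 and 11.25 to 14.07 and 14.18 in Col and from 9.51 and 9.23 to 12.93 and 12.98 in C24, a response 0.69 ± 0.13 higher in C24 (adjusted p = 0.0014) at a level that stayed below that of Col throughout. Another gene of the COR and LEA list, LEA18, rose in C24 alone, from 4.73 and 4.63 to 5.64 and 5.98, while Col stayed in the background range (difference 1.19 ± 0.20).

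The late genes of anthocyanin synthesis went the other way. All 4 measured members rose in C24 and fell in Col, with a median difference of 3.16, where 20.4% of all probe sets were higher. DFR, the dihydroflavonol reductase at the branch to anthocyanins, read 10.58 and 10.48 in Col at room temperature and 6.49 and 6.23 after 24 h. In C24 it read 7.54 and 7.57 at room temperature, 7.87 and 7.97 after 3 h and 8.72 on both arrays after 24 h. Col thus went from far above C24 to far below it, and the difference of responses was 5.33 ± 0.13 (40.2-fold, adjusted p = 2.41e-10). UF3GT, a glycosyltransferase of anthocyanins, fell from 8.85 and 9.06 to 6.46 and 6.55 in Col and rose from 7.06 and 6.98 to 8.01 and 8.02 in C24 (difference 3.44 ± 0.14). The malonyltransferase AT5MAT (2.88 ± 0.11) and AT4G14090 (2.52 ± 0.11) crossed in the same way, from 1.53 and 1.16 below Col to 1.35 and 1.37 above it.

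Of 6 measured genes of earlier flavonoid and flavonol steps 4 had the higher response in C24 and none the lower (median 1.25), beside 20.4% and 19.1% of all probe sets, and none was of the opposite kind. The flavonoid glycosyltransferases UGT78D2 and UGT78D3, which complete the 4 and are named after their values were seen, rose in both ecotypes. UGT78D2 rose by 0.76 in Col and 2.32 in C24, and UGT78D3 by 1.89 and 2.84. CHIL and UGT78D1 did not pass in Col. CHIL, a chalcone isomerase-like protein that aids the first steps, read 9.58 and 9.73 in Col at room temperature and 9.89 and 9.82 after 24 h, while C24 rose from 7.74 and 7.82 through 8.64 and 8.79 at 3 h to 11.37 and 11.39. Its difference of 3.40 ± 0.12 carried C24 from 1.88 below Col to 1.52 above. UGT78D1, a flavonol rhamnosyltransferase, read 8.95 and 8.93, then 8.80 and 8.83 in Col, and 5.76 and 5.57, then 8.28 and 8.33 in C24, so that C24 ended below Col by 0.51 (difference 2.76 ± 0.11). HYH, a bZIP factor close to the light regulator HY5, which activates flavonoid genes, rose in both ecotypes. It went from 6.95 and 6.97 to 8.48 and 8.39 in Col and from 5.58 and 5.11 through 7.61 and 7.68 to 9.60 and 9.62 in C24 (difference 2.80 ± 0.17).

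SWEET13, a sucrose exporter of leaf veins, read 8.65 and 8.71 in Col at room temperature and 9.53 and 9.24 after 24 h, and in C24 it rose from 6.26 and 5.9996 through 7.59 and 7.69 to 10.31 and 10.48 (difference 3.57 ± 0.16, adjusted p = 2.22e-08). Of 17 measured sugar transporters 4 had the higher response in C24, near the 20.4% of all probe sets, 13 were not called and none was lower (median 0.20). The lower count was 1 without Col 24 h replicate 2 or C24 room temperature replicate 2, and 2 with readings in the background range raised to the lower quartile. SWEET16, a vacuolar sugar transporter, fell in Col only by the calls, with a difference of 0.90 ± 0.14.

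The starch and sugar metabolism list was mixed, with 3 of 6 measured genes higher and 2 lower in response (median 0.25). For all probe sets the shares were 20.4% and 19.1%. The amylase AMY1 at -0.18 (limma adjusted p = 0.228) was not called. APL3 and APL4 encode large subunits of ADP-glucose pyrophosphorylase, which makes the substrate of starch synthesis. APL3 fell from 7.48 and 7.53 to 6.44 and 6.64 in Col and rose from 5.86 and 5.51 to 8.48 and 8.47 in C24, with 5.84 and 6.29 at 3 h, so its rise came after 3 h (difference 3.76 ± 0.21). APL4 differed by 1.75 ± 0.13. PWD, the phosphoglucan water dikinase that opens the starch granule for breakdown, rose in Col from 8.90 and 8.83 to 10.16 on both arrays and fell in C24 from 11.32 on both arrays to 10.59 and 10.66 (difference -1.99 ± 0.10). The disproportionating enzyme DPE1, which processes short glucans in the plastid, fell in C24 alone (-1.21 ± 0.11).

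**Figure D4:**
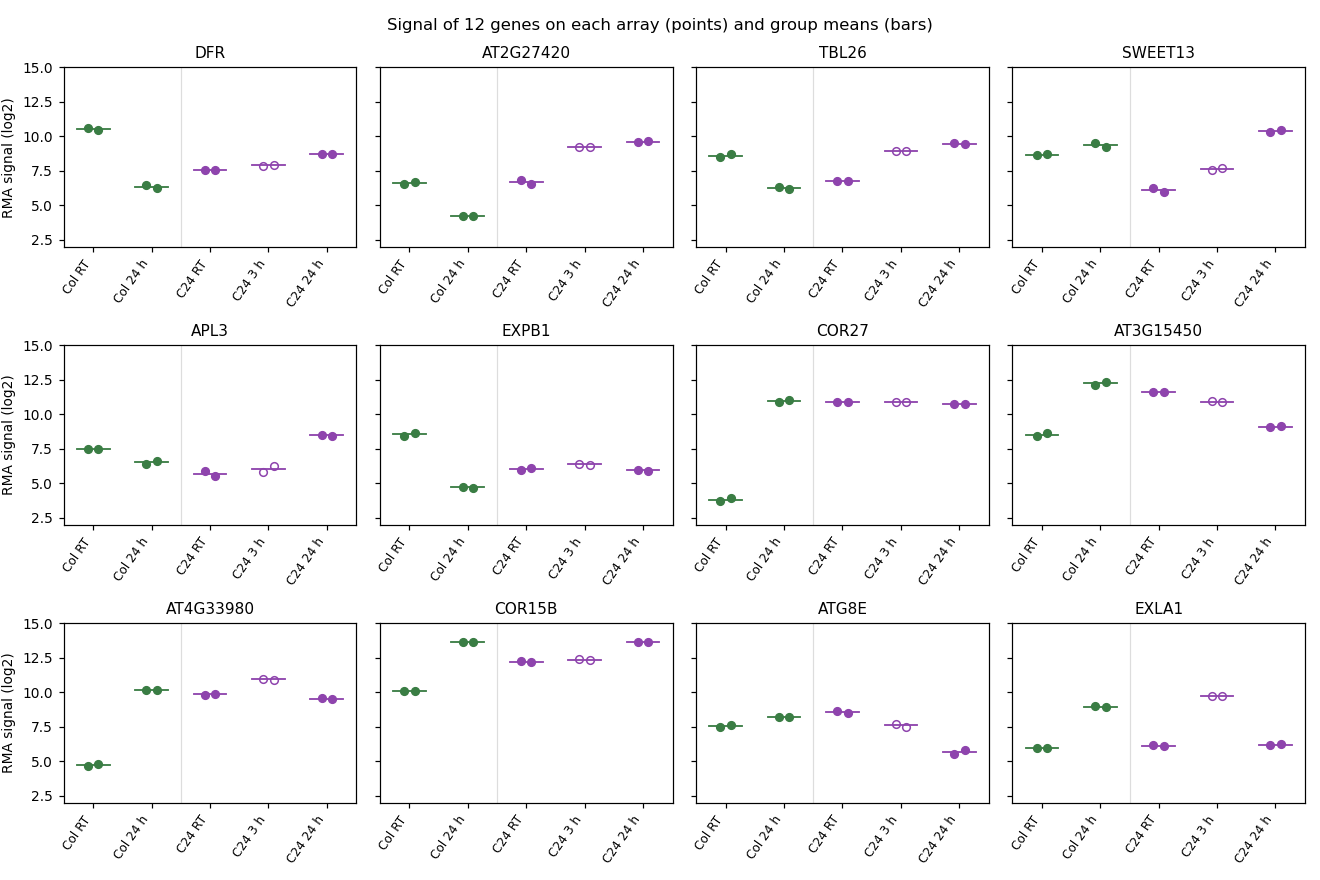
Points are the signals of 12 genes on each of the 10 arrays (log2, 2 arrays per group) and bars the group means, in green for Col and purple for C24, with open points for C24 after 3 h. DFR and AT3G15450 cross between the ecotypes, while COR27 and AT4G33980 stand low only in Col at room temperature.

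All 6 measured genes of energy shortage and of branched-chain amino acid breakdown were lower (median -0.76), and 8 of 10 autophagy genes were lower with none higher (median -0.64), beside 19.1% of all probe sets lower. Autophagy degrades cell contents in the vacuole and rises in starved plants. ATG8E, a ubiquitin-like protein that coats the autophagosome membrane, read 7.52 and 7.64 in Col at room temperature and 8.20 on both arrays after 24 h, and in C24 it fell from 8.68 and 8.54 through 7.71 and 7.49 to 5.55 and 5.80. The C24 arrays went from the highest to the lowest of the 4 groups (difference -3.55 ± 0.15, adjusted p = 1.01e-08). ATG8D moved the same way by a smaller step (-1.49 ± 0.15). AKINBETA1, a subunit of the energy-sensing SnRK1 kinase, did not pass in Col (7.57 and 7.65, then 7.59 and 7.70) and fell in C24 from 8.81 and 8.55 through 6.91 and 6.83 to 6.04 and 6.09 (difference -2.65 ± 0.13). MCCA, a subunit of methylcrotonyl-CoA carboxylase in leucine breakdown, fell in both, by 0.82 in Col on the log2 scale and by 1.84 in C24 (difference -1.02 ± 0.10).

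The genes with the largest falls of the C24 response beyond COR27 were mostly uncharacterised in the annotation used. Of the 15 largest named falls 12 were of the opposite kind, 14 started higher in C24 than in Col, and 14 ended lower. These counts are partly set by picking the largest differences. Of all differences of at least 2-fold 43.7% were of the opposite kind. AT3G15450 read 8.44 and 8.63 in Col at room temperature and 12.16 and 12.37 after 24 h, but 11.65 and 11.63, 10.94 and 10.88, and 9.09 and 9.13 in C24 at room temperature, 3 h and 24 h (difference -6.26 ± 0.13). AT3G15630 went from 6.76 and 6.79 to 8.48 and 8.56 in Col and from 9.81 and 9.86 through 7.37 and 7.44 to 5.78 and 6.15 in C24 (difference -5.61 ± 0.15). In both the fall in C24 was already under way at 3 h, and the order of the ecotypes was exchanged by cold.

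AT5G62360 differed from these, since C24 stood at 10.64 and 10.58 before and 10.58 and 10.63 after 24 h, with 12.67 and 12.68 at 3 h, while Col rose from 5.83 and 6.08 to 11.87 and 11.82 (difference -5.89 ± 0.12). DEWAX (AT5G61590), an AP2/ERF factor that represses wax synthesis, rose in Col from 7.27 and 7.23 to 9.10 on both arrays and fell in C24 from 10.20 and 10.17 through 9.06 and 9.13 to 7.39 and 7.32 (difference -4.67 ± 0.10). AT1G19530 was the leading gene of this side that started level, with 6.10 and 5.98 in Col and 6.20 and 6.07 in C24, and it rose to 8.61 and 8.70 in Col and fell to 4.38 and 4.44, the background range, in C24 (difference -4.34 ± 0.13). The remaining named falls of the 15 were AT2G38465 (-4.71), AT4G27280 (-4.68), AT1G07050 (-4.67), AT5G19120 (-4.59), AT2G27830 (-4.42), AT3G10020 (-4.30), AT4G32340 (-4.07) and AT3G46600 (-4.07).

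Of the 15 largest named rises of the C24 response 12 were of the opposite kind as well. In 14 of them C24 started lower and in 9 it ended higher, counts again partly set by picking the largest differences. AT2G27420 was the exception at the start, with 6.55 and 6.73 in Col and 6.86 and 6.56 in C24. It fell to 4.21 on both arrays in Col, the background range, and rose in C24 to 9.27 and 9.23 at 3 h and 9.62 and 9.65 at 24 h (difference 5.35 ± 0.14). With readings in the background range raised to the lower quartile its difference was 5.05, below the 5.33 of DFR, so their order is not settled. TBL26, of a family that acetylates cell wall polysaccharides, fell from 8.50 and 8.71 to 6.33 and 6.21 in Col and rose from 6.79 and 6.80 through 8.94 and 8.96 to 9.51 and 9.45 in C24 (difference 5.02 ± 0.12).

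Others of these genes rose in C24 from a low start and stayed below Col. AT1G22440 read 9.85 and 9.86 in Col at room temperature and 8.92 and 8.87 after 24 h, and 5.23 and 5.18, 8.44 and 8.37, and 8.37 and 8.39 in C24 at room temperature, 3 h and 24 h (difference 4.14 ± 0.10). AT4G30170 rose from 5.03 and 5.13 through 8.78 and 8.85 to 7.70 and 7.66 in C24, against 10.21 and 10.27, then 8.67 and 8.76 in Col (difference 4.13 ± 0.10). The root markers given above, lowest in C24 at room temperature and highest there at 3 h among the C24 groups, moved in the same order as AT4G30170. The remaining named rises of the 15 were EXPB1 (3.75), AT1G52070 (3.71), AT2G18980 (3.69), AT1G73600 (3.67), AT2G15020 (3.67), AT5G38020 (3.64), AT1G18980 (3.63) and AT1G13650 (3.45). Over the 30 leading genes the SE ran from 0.0935 to 0.245 and the limma adjusted p from 3.86e-11 to 7.04e-07. The array-by-array responses did not overlap in any of the 30, where 57.2% of all probe sets showed no overlap. Picking the largest differences made this nearly certain.

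Single genes show the other patterns. C24 alone changed AT1G49500, from 11.56 and 11.43 through 9.36 and 9.37 to 8.08 and 8.03, where Col read 10.05 and 9.99, then 10.11 and 9.99 (difference -3.48 ± 0.11). AT3G07350 (-3.41 ± 0.12) had the same shape, and AT4G38080 (2.76 ± 0.13) the reverse, rising in C24 from 5.04 and 4.90 to 7.79 and 7.95. Col alone changed AT2G24560, from 3.81 and 3.94 to 7.46 and 7.04, while all C24 arrays lay between 3.79 and 3.98, in the background range (difference -3.29 ± 0.17). AT4G15390 (3.06 ± 0.22) and AT5G47980 (2.94 ± 0.17) fell in Col alone by the calls, to 7.02 and 7.16 and to 4.69 on both arrays. In C24 AT5G47980 lay in the background range on all arrays, and AT4G15390 read 4.42 to 4.91, in or close to that range. A fall in C24 could therefore hardly have been seen in these genes.

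Where both ecotypes moved alike, AT1G23390 fell from 9.32 and 9.27 to 8.71 and 8.70 in Col and from 11.67 and 11.50 through 7.50 and 7.25 to 6.99 and 6.92 in C24 (difference -4.04 ± 0.13). AT5G18600 fell by 0.38 on the log2 scale in Col and by 3.29 in C24, where the 3 h arrays at 10.014 and 10.005 still lay near room temperature at 10.15 and 10.16 (difference -2.91 ± 0.10). AT3G22620 (2.58 ± 0.11) rose more in C24. AT1G68500 (-3.05 ± 0.10), AT1G11210 (-2.68 ± 0.13) and AT1G76590 (-2.40 ± 0.11) rose in both ecotypes and more in Col, and GH9B13 (2.42 ± 0.16) and AT1G67750 (2.25 ± 0.10) fell in both and more in Col.

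Cell wall genes moved both ways. Of 27 measured expansins and xyloglucan transferases, which loosen and remodel the wall, 13 had the higher and 7 the lower response in C24 (median 0.35). For all probe sets the shares were 20.4% and 19.1%. EXPB1 fell from 8.46 and 8.64 to 4.75 and 4.70 in Col and read 5.95 and 6.09, then 5.97 and 5.93 in C24 (difference 3.75 ± 0.12). EXPB3 fell in Col from 10.79 and 10.64 to 8.38 and 8.33 and rose in C24 from 8.74 and 8.70 to 9.39 and 9.35 (difference 3.01 ± 0.11). The expansin-like genes went against them: EXLA1 rose in Col from 5.96 and 5.94 to 9.02 and 8.90, while C24 stood at 6.18 and 6.10 before and at 6.15 and 6.24 after 24 h (difference -2.96 ± 0.10). At 3 h EXLA1 had read 9.70 and 9.74 in C24, so the low value at 24 h followed a high one. EXLA3 differed by -2.29 ± 0.16 with all C24 arrays in the background range.

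Of 26 genes of cellulose and secondary wall 9 had the higher and 2 the lower response (median 0.08), beside 20.4% and 19.1% of all probe sets. Without Col room temperature replicate 2, Col 24 h replicate 1, C24 room temperature replicate 1 or C24 24 h replicate 1 the lower count was 1. GH9B8 and GH9C2, endoglucanases of the wall, fell in Col and rose in C24, by differences of 3.38 ± 0.15 and 2.94 ± 0.10. GH9B8 read 8.06 and 8.20, then 6.50 and 6.75 in Col, and 5.69 and 5.89, then 7.73 and 7.61 in C24.

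**Figure D5:**
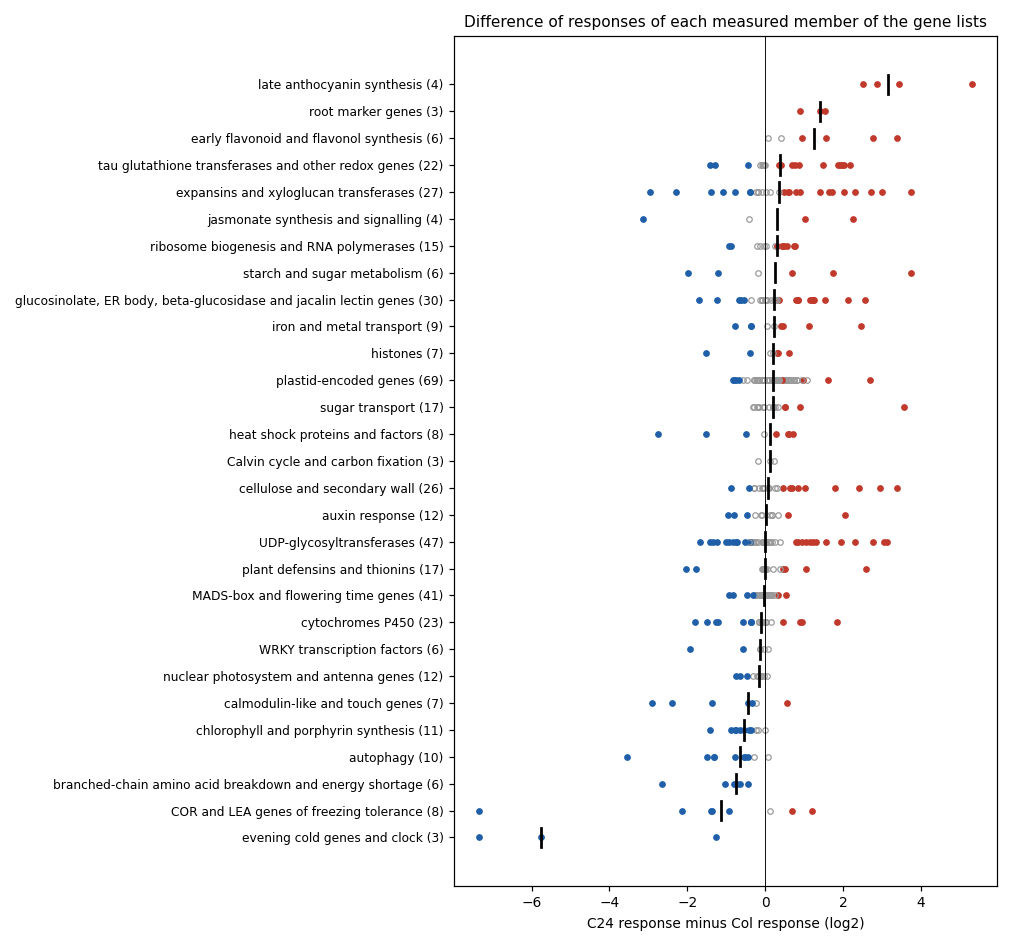
Each row is a gene list with at least 3 measured members (number in brackets), each point the difference of responses of 1 member (log2), filled red or blue where called higher or lower in C24 and open where not, and each black bar the list's median. Late anthocyanin synthesis lies wholly to the right of 0 (median 3.16), and the autophagy list mostly to the left of it (median -0.64).

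ER bodies are compartments that store beta-glucosidases against herbivores, mainly in roots and seedlings. Of 30 measured glucosinolate, ER body, beta-glucosidase and jacalin lectin genes 12 were higher, 5 lower and 13 not called (median 0.24), beside 20.4% and 19.1% of all probe sets, with 8 members in the background range in all groups. PYK10, the main root beta-glucosidase, read 12.70 and 12.92, then 12.22 and 12.29 in Col, and 10.60 and 10.62, 12.52 and 12.54, and 11.60 and 11.58 in C24 at room temperature, 3 h and 24 h (difference 1.54 ± 0.11). NAI2, needed for ER body formation, read 9.82 and 9.88, then 7.64 and 7.78 in Col, and 6.12 and 6.44, 8.77 and 8.68, and 6.66 and 6.76 in C24 (difference 2.57 ± 0.15). In both genes C24 lay below Col at either temperature, and its 3 h arrays lay above its other arrays. The root hair expansins EXPA18 (1.42 ± 0.12) and EXPA7 (0.89 ± 0.21) complete the 3 root markers, all called higher, beside 20.4% of all probe sets. Against these, BGLU43 fell in C24 from 6.51 and 6.79 to 4.56 on both arrays and stayed in the background range in Col (-1.69 ± 0.15), and BGLU25 rose in Col alone (-1.23 ± 0.11).

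Detoxification and redox genes were mixed. Of 22 tau glutathione transferases and other redox genes 12 had the higher and 3 the lower response in C24 (median 0.37), beside 20.4% and 19.1% of all probe sets. The lower count was 2 without Col room temperature replicate 2, Col 24 h replicate 2, C24 room temperature replicate 2 or C24 24 h replicate 1. MSRB9, a methionine sulfoxide reductase, read 9.62 on both arrays and then 8.34 and 8.42 in Col, and 5.91 and 5.97, then 6.89 and 6.91 in C24 (difference 2.19 ± 0.12). GSTU26 (2.02 ± 0.10) fell in Col and rose in C24, whereas GSTU25 rose more in Col (-1.29 ± 0.18) at levels of 9.85 to 11.74 in Col and 5.43 to 6.36 in C24. TRXF2, a thioredoxin that activates enzymes of carbon fixation in light, fell in both ecotypes and more in C24, from 9.99 and 9.96 to 8.05 and 8.06 (difference -1.42 ± 0.13).

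Of 47 UDP-glycosyltransferases 13 were higher and 12 lower (median 0.00), beside 20.4% and 19.1% of all probe sets. UGT76B1, which acts on salicylate-related defence, read 8.61 and 8.65, then 8.03 and 7.96 in Col, and 4.41 and 3.72, the background range, then 6.52 and 6.57 in C24 (difference 3.12 ± 0.24). UGT72E2, which glucosylates lignin precursors, differed by 3.07 ± 0.16, UGT73B1 by -1.68 ± 0.13 and UGT85A5 by -1.42 ± 0.15. Cytochromes P450, 23 measured, gave 4 higher and 8 lower (median -0.10), beside 20.4% and 19.1% of all probe sets. The lower count was 4 without C24 room temperature replicate 2 and 5 without either Col room temperature array, Col 24 h replicate 2 or either C24 24 h array. CYP71B26 (1.86 ± 0.11) rose in C24 and fell in Col, while CYP71B22 (-1.81 ± 0.12) fell in C24 alone, from 6.41 and 6.59 to 4.65 and 4.71.

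Chlorophyll synthesis had the lower response in C24 in 8 of 11 measured genes and the higher in none (median -0.55), beside 19.1% and 20.4% of all probe sets. PORB, the light-dependent protochlorophyllide oxidoreductase, rose in Col from 11.84 and 11.85 to 12.21 and 12.28 and fell in C24 from 12.65 and 12.60 to 11.61 and 11.63 (difference -1.40 ± 0.10). HEMA2, a glutamyl-tRNA reductase at the entry of the pathway, crossed likewise (-0.86 ± 0.15). Of 12 nuclear photosystem and antenna genes 3 were lower, near the 19.1% of all probe sets, and none was higher (median -0.17), led by PGRL1B of cyclic electron flow (-0.75 ± 0.12) and NdhL of the chloroplast NDH complex (-0.65 ± 0.12). None of 3 measured Calvin cycle genes was called, with RCA at 0.23 ± 0.10, SBPASE at 0.13 ± 0.09 and PRK at -0.19 ± 0.11, while RCA and SBPASE passed with background readings raised to the lower quartile.

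Of 69 plastid-encoded genes 4 had the higher and 4 the lower response in C24, with a median of 0.21, whereas 20.4% and 19.1% of all probe sets were called. The 4 lower ones were psbF (-0.83 ± 0.11), psbL (-0.79 ± 0.10), psbJ (-0.75 ± 0.10) and psbE (-0.67 ± 0.12), small photosystem II subunits that are transcribed together. The psbF arrays read 12.50 and 12.46, then 12.33 and 12.24 in Col, and 12.47 and 12.36, then 11.44 and 11.35 in C24. The higher ones were rps16 (2.70 ± 0.54), rpoB (1.62 ± 0.43, not called with an intensity trend and robust prior or with background readings raised to the lower quartile), psbZ (0.98 ± 0.29) and rps18 (0.43 ± 0.11), of which rps16 spread widely, with 6.15 and 7.43 in C24 at room temperature and 9.46 and 8.55 after 24 h. psbE, psbJ, psbZ and rps18 are named here because they complete the counts, after their values were seen. The higher count was 14 without Col 24 h replicate 2, 7 without C24 room temperature replicate 2 and 2 without C24 24 h replicate 1 or with background readings raised to the lower quartile.

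Signalling genes gave smaller groups. Of 7 calmodulin-like and touch genes 5 had the lower response in C24 and 1 the higher (median -0.43), beside 19.1% and 20.4% of all probe sets. Without C24 room temperature replicate 2 these counts were 3 and 0, the latter also without C24 24 h replicate 2. CML38 rose in Col from 4.92 and 4.91 to 6.60 and 7.42 and fell in C24 from 5.11 and 5.22 to 4.38 and 4.29, having read 6.28 and 6.36 at 3 h (difference -2.92 ± 0.27). CML37 rose in Col alone, from 3.33 and 3.25 to 5.71 and 5.81, with all C24 arrays in the background range (-2.39 ± 0.11, or -1.26 with background readings raised to the lower quartile).

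Of 4 jasmonate genes ORA47, an AP2/ERF activator of jasmonate synthesis, was lower and JMT and MYC4 were higher in response (median 0.32). Over all probe sets 19.1% were lower and 20.4% higher. ORA47 read 4.82 and 4.84, then 4.54 and 5.35 in Col, and 7.83 and 7.53, 4.81 and 4.84, and 4.67 and 4.63 in C24, so the C24 room temperature arrays alone stood high (difference -3.14 ± 0.28). JMT, which makes methyl jasmonate, rose in C24 from the background range, 3.78 and 3.53, to 6.16 and 6.07 (2.25 ± 0.15, or 1.40 with background readings raised to the lower quartile), and the transcription factor MYC4 rose in C24 alone (1.04 ± 0.13). MYC3 stood at -0.41 ± 0.20 and was called only without Col room temperature replicate 2, which made the lower count 2. WRKY22, a defence regulator, shared the shape of ORA47, with 6.20 and 6.31 in C24 at room temperature and 4.33 to 4.73 on every other array (-1.93 ± 0.13). It was 1 of 2 lower genes among 6 measured WRKY factors, with none higher (median -0.13), beside 19.1% and 20.4% of all probe sets.

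Of 12 auxin response genes 2 were higher and 3 lower (median 0.03), near the 20.4% and 19.1% of all probe sets, with GH3.17, which inactivates auxin by conjugation, at 2.06 ± 0.10 and the Aux/IAA repressors IAA29 and IAA18 at -0.95 ± 0.19 and -0.79 ± 0.11. The higher count was 1 without Col room temperature replicate 1. Of 17 plant defensins and thionins 4 were higher and 2 lower (median -0.01), also near those shares, with 7 members in the background range in all groups. PDF2.1 rose in both ecotypes, from 7.32 and 7.21 to 11.58 and 11.44 in Col and from 6.74 and 6.49 to 8.86 and 8.83 in C24 (-2.02 ± 0.14), and LCR69 rose more in Col too (-1.77 ± 0.10). PDF2.5 fell in Col and rose in C24 from the background range (2.59 ± 0.11), and the thionin THI2.2 (1.04 ± 0.12) rose more in C24.

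Among 15 measured RNA polymerase and ribosome biogenesis genes 7 were higher and 2 lower in response (median 0.29), beside 20.4% and 19.1% of all probe sets. The higher count was 4 without Col room temperature replicate 2. YAO, a nucleolar protein of ribosomal RNA processing, rose from 7.57 and 7.55 to 8.82 and 8.74 in Col and from 7.33 and 7.31 to 9.30 and 9.29 in C24 (0.75 ± 0.09). The polymerase II subunit NRPB9B (0.78 ± 0.12) also rose more in C24, whereas NRPE7 (-0.92 ± 0.12) and NRPD7 (-0.86 ± 0.13), subunits of the polymerases of RNA-directed DNA methylation, had the lower response.

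Of 8 heat shock genes 4 were higher and 3 lower (median 0.13), beside 20.4% and 19.1% of all probe sets. The chaperone Hsp70-2 (0.72 ± 0.15) and the co-chaperone Hop2 (0.61 ± 0.12) rose more in C24, and the nucleotide exchange factors Fes1B (-2.75 ± 0.13) and Fes1C (-1.51 ± 0.10) fell in C24. Fes1B fell there from 9.58 and 9.68 through 8.25 and 8.31 to 6.57 and 6.30, and in Col from 7.77 and 7.87 to 7.43 and 7.31. Among 7 histone genes 3 were higher and 2 lower (median 0.22), beside the same shares. The higher count was 1 without any one of the C24 arrays at room temperature or 24 h, and the lower count was 1 without Col room temperature replicate 1, either Col 24 h array, either C24 3 h array, or replicate 2 of C24 at room temperature or 24 h. HIS1-3, a drought-inducible linker histone, fell in both ecotypes, from 6.89 and 6.84 to 4.94 and 4.95 in Col and from 10.24 and 9.99 to 6.74 and 6.63 in C24 (-1.51 ± 0.13).

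Of 9 genes of iron and metal transport 4 were higher and 3 lower (median 0.22), beside 20.4% and 19.1% of all probe sets. The higher count was 2 without Col room temperature replicate 2 or C24 24 h replicate 2. The iron regulators bHLH34 (2.46 ± 0.13) and bHLH115 (1.12 ± 0.13) fell in Col and rose in C24, and bHLH121 (-0.76 ± 0.11) did the reverse. Of 41 MADS-box and flowering time genes 26 lay in the background range in all groups, 2 were higher and 4 lower (median -0.03). These shares lie below the 20.4% and 19.1% of all probe sets. The higher count was 1 without Col room temperature replicate 1, either Col 24 h array, C24 room temperature replicate 2 or either C24 24 h array, and the lower count was 2 without Col room temperature replicate 2 or C24 24 h replicate 1. AGL26 rose in Col and fell in C24 (-0.94 ± 0.10).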

How the data were processed

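Total RNA from 10 samples was hybridised to Affymetrix ATH1 arrays. The authors used GCOS and RMA to obtain the deposited log2 signals, per the submitters' processing notes, which give no versions. RMA corrects background, normalises quantiles and summarises probes, so whole-array shifts are removed. All columns mapped to a sample (0 unmapped).

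After 64 control probe sets were set aside, 22746 were fitted with limma 3.58.1 in R 4.3.3 (lmFit, eBayes) with 5 group means and no filter or pseudocount. The fit was tested on simulated data first. Benjamini-Hochberg adjustment was applied comparison by comparison. A gene name was used for the 13513 probe sets (13350 genes) annotated to a single gene, 13436 of which matched RefSeq for TAIR10.1. A further 503 carry several genes and 8730 none.

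The comparison, the gene lists and the genes named were chosen with earlier results of these data known. Named genes were the 15 largest called differences each way, the 3 largest each way in each pattern, the 2 largest each way of a described list (every member where a list had at most 5), and cold genes by choice. After the files were seen, 1 glucosinolate gene and the cyclophilins were removed from lists, a mitochondrial list was dropped and plastid genes were taken by chromosome. Of 47 lists, 29 had at least 3 measured members, 12 had 1 or 2 and 6 had none. A planned description of promoter motifs was not made, and promoters are not analysed here. The labels' replicate numbers did not pair arrays: replicate deviations correlated between -0.115 and 0.119 across the 10 pairs of groups.

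Alternatives were another quantile normalisation, median centring, a replicate block, a robust prior with intensity trend, omission of dim probe sets, a single probe set for each gene, a fit to the 8 arrays alone, a 2-fold threshold, each array left out, and, added after the data were seen, background readings raised to the array's lower quartile and calls shared with C24 against Col after 24 h.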

Additional observations from a re-analysis of the deposited data

Results flagged for a closer look

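The difference between the ecotypes' responses is itself the comparison of this report. Its 8981 called probe sets, the 1758 with opposite responses among them, passed a direct limma test of that difference at an adjusted p below 0.05. This threshold allows a share of false calls, and 16 of the 64 control probe sets passed as well when fitted with the others. The leading rises of the C24 response over the Col response, in log2 units, were AT2G27420 (5.35), DFR (5.33), TBL26 (5.02), AT1G22440 (4.14), AT4G30170 (4.13), APL3 (3.76), EXPB1 (3.75), AT1G52070 (3.71), AT2G18980 (3.69), AT1G73600 (3.67), AT2G15020 (3.67), AT5G38020 (3.64), AT1G18980 (3.63), SWEET13 (3.57) and AT1G13650 (3.45). The leading falls were COR27 (-7.35), AT3G15450 (-6.26), AT5G62360 (-5.89), AT4G33980 (-5.77), AT3G15630 (-5.61), AT2G38465 (-4.71), AT4G27280 (-4.68), AT1G07050 (-4.67), AT5G61590 (-4.67), AT5G19120 (-4.59), AT2G27830 (-4.42), AT1G19530 (-4.34), AT3G10020 (-4.30), AT4G32340 (-4.07) and AT3G46600 (-4.07). Groups of 2 arrays were too small to look for single arrays far from the rest.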

How the results depend on the processing

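With 1 probe set per gene, 4608 of 13350 genes were called (2297 higher, 2311 lower, 1261 at least 2-fold, 854 opposite, 2724 with the larger gap at room temperature). Fewer probe sets were tested there, and the share called was also smaller than the 39.5% of all probe sets. In the main fit 4805 of the 13513 probe sets with a single gene were called. Requiring a 2-fold difference left 2554. Of the calls, 4589 also passed with the same sign when C24 was compared with Col at 24 h, a comparison added once the values were known. That gap is itself a term of the difference. Calling the difference also needs the room temperature arrays, so the 4589 are no check free of them. The replicate block, for numbers that do not pair the arrays, gave 8924 calls, 8741 of them shared with the fit without it. Other settings kept the total within 1.5 times: 8954 after another quantile normalisation, 9032 with median centring (4519 higher, 4513 lower), 9461 with a trend and robust prior, 8999 without dim probe sets, 8791 with background readings raised to the lower quartile (chosen after the data were seen) and 8809 with 8 arrays. Leaving out 1 array at a time gave 7796 to 8809 calls, 4062 to 4551 higher, 3709 to 4258 lower, 2548 to 2577 at least 2-fold, 1456 to 1722 opposite and 4619 to 5252 with the larger gap at room temperature.

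Of 144 named genes 140 were called, 126 in every alternative that held them, and none reversed. Among the genes given above, rpoB lost its call with a trend and robust prior and with background readings raised. In both settings the higher plastid-encoded count was 2 instead of 4, so at least 1 other of rps16, psbZ and rps18 lost its call too. With background readings raised rps16 kept its call. List counts moved by over 1.5 times in 60 cases, 52 of them with 4 or fewer calls. Among settings that kept all arrays these included 6 lower photosystem genes and 2 higher plastid-encoded genes with a trend and robust prior, where RCA and PRK passed. The 2 arrays per group, the unstated harvest time and the spread of root markers across groups limit what the counts show.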
